A study of Mus musculus with 40 samples.

Results

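The genes of glycolysis and of the cellular response to low oxygen were followed in mouse splenic B cells cultured with CpG, a DNA motif of bacteria and the ligand of Toll-like receptor 9. The list named 36 genes, each represented by the probe of that gene symbol with the highest mean over the 40 arrays of the authors' processed table. A probe was found for 33 of the 36, and 27 of them were detected on at least 5 of 40 arrays and tested, among 9453 tested genes of the 19057 with a probe. The 8 groups were Bank1-/- cells at 0, 6, 24 and 48 h and WT cells at the same hours, with 5 biological replicates each per the labels. All mice were C57BL/6, the Bank1-/- line after 9 generations of backcrossing, and the labels name both Bank1+/+ littermates and purchased C57BL/6J mice as WT without saying which gave the arrays. Bank1 encodes an adaptor protein with ankyrin repeats that acts downstream of B cell receptors, and the study's title places it in the control of Il6, type I interferon inducible genes, p38 and eIF4E. Non-B cells were removed from spleen cells by magnetic labelling, which per the labels left a population mostly B220+CD3-, and total RNA was amplified for Illumina bead arrays. No group was cultured without CpG, so that a change from 0 h combines CpG with time in culture.

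Glycolysis splits glucose into pyruvate, and lactate dehydrogenase turns pyruvate into lactate so that the pathway can run fast. Activated lymphocytes are known to raise it when they grow and divide. Hypoxia-inducible factor (HIF), a dimer of an oxygen-labile alpha subunit such as Hif1a and the stable subunit Arnt, binds the core ACGTG or GCGTG, and many glycolytic genes, as well as Ankrd37, Egln3, Ndrg1 and Vegfa, are known as HIF targets. The oxygen-dependent prolyl hydroxylases Egln1 and Egln3 mark the alpha subunit for destruction, and Egln3 is itself a target, so its transcript is a common reading of the pathway.

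To show what the promoters of these genes hold, the 250 bases before the annotated start were read from RefSeq sequences of the build GRCm38.p6, which gave 49 promoters for 34 of the 36 genes, all but Ndrg1 and Slc2a3. A search of both strands for ACGTG or GCGTG found a match in 38 of the 49 promoters (77.6%), against 38.6% of all 32851 promoters of the same length and 56.9% of the 9844 promoters of tested genes. At least 1 promoter of 30 of the 34 genes held a match, and Tpi1 and Mif, which both rose at 6 h, were among those with none. The palindrome CACGTG, which contains ACGTG on each strand and is also the E-box of Myc-type factors, was in 6 of the 49 (12.2%), against 6.02% of all promoters and 8.72% of those of tested genes. A match describes the letters and is not evidence of binding. The 6 promoters printed were chosen for 3 kinds of time course: Ldha and Pgk1, which rose from the first hours, Slc2a1, which fell, and Ankrd37, Aldoc and Egln3, which were low at 6 h and high at 48 h. They run 5′ to 3′ on the strand of the gene, and the capitals mark each place where ACGTG or GCGTG stands on either strand. The first promoter of Ldha lies at chr7:46845554-46845803, plus strand, that of Pgk1 at chrX:106186850-106187099, plus strand, and that of Slc2a1 at chr4:119108495-119108744, plus strand. The promoter of Ankrd37 lies at chr8:45999851-46000100, minus strand, the first of Aldoc at chr11:78322823-78323072, plus strand, and that of Egln3 at chr12:54203875-54204124, minus strand.
Ldha: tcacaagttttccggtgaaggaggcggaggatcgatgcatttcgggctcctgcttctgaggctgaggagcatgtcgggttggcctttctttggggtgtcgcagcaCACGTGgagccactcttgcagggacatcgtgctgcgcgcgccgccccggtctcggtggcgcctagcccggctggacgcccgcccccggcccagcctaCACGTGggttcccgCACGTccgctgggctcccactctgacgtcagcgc
Pgk1: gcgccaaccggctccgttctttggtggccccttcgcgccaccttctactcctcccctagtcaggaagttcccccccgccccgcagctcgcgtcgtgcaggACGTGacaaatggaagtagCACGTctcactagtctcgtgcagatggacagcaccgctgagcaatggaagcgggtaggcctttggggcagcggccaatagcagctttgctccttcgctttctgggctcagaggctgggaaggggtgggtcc
Slc2a1: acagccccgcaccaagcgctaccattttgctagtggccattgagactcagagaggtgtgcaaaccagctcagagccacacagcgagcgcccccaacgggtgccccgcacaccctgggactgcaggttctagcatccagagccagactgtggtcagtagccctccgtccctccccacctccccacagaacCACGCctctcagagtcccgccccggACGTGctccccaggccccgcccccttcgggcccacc
Ankrd37: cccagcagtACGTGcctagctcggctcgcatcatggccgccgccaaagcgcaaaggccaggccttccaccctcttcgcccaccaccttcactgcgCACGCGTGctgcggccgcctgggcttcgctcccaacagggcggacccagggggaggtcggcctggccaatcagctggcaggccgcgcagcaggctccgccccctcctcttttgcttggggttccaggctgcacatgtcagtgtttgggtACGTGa
Aldoc: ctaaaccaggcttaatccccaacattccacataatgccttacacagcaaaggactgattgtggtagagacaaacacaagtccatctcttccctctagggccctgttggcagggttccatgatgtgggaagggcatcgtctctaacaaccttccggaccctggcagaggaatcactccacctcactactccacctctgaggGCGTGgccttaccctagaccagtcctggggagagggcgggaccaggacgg
Egln3: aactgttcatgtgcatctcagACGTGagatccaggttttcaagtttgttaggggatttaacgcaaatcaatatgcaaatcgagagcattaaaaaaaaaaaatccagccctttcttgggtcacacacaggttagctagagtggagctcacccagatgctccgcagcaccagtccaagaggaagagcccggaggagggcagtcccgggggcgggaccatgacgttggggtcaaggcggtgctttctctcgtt
The Ldha promoter holds CACGTG at 2 places and the Ankrd37 promoter holds ACGTG at 2 and GCGTG at 2. Such letters were present both in genes that rose at 6 h (Ldha and Pgk1) and in genes that fell (Slc2a1 and Ankrd37).

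Some libraries need to be known before the results. The mean raw signal per array was between 145.7 and 539.9, and 10396 to 16767 of 45281 probes were detected. Here detected means above the 99th percentile of the 1287 olfactory receptor probes of the same array. Bank1 itself was lower in Bank1-/- cells at each hour, by between 1.00 (6 h, adjusted p = 0.00487) and 2.42 (24 h, adjusted p = 5.9e-08) on the log2 scale, although its probe was detected on all Bank1-/- arrays but 2 of those at 6 h; where it lies relative to the deleted part is not given in the sources used here. Among the Bank1-/- arrays at 0 h, replicate 5 stood apart: its root mean square log2 distance over the tested genes was 0.159 to Bank1-/- 24 h replicate 1 and 0.979 to the nearest array of its own group. Fitted differences from the 0 h Bank1-/- arrays are therefore given with and without it, and counts where they change, since it also enters the spread shared by all groups. The library labelled Bank1-/- 0 h replicate 4 lay nearest to WT 0 h replicate 4 (0.441, against 0.456 within its own group), and WT 6 h replicate 5 nearest to Bank1-/- 6 h replicate 1 (0.242, against 0.467). Bank1-/- 6 h replicate 1, Bank1-/- 24 h replicate 1, Bank1-/- 48 h replicates 1, 2, 3 and 5 and WT 48 h replicates 1 and 2 were likewise nearest to the other genotype at their hour. Of the B cell markers, 5 of 7 had a probe, and at least 4 of those 5 were detected in each group; their levels changed with time, as given beside the results. T cell and NK cell markers were not detected, apart from Cd3g in Bank1-/- cells at 6 h and WT cells at 0 h. In these bulk samples, fewer cells of a type and less RNA per cell cannot be told apart.

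The list was measured unevenly across the pathway. No probe carried the symbols Hk2, Gpi1 or Eno1, which encode a hexokinase, glucose-6-phosphate isomerase and the ubiquitous enolase. The lactate transporters Slc16a1 and Slc16a3 were detected on 0 and 3 of 40 arrays. Pfkfb3, the kinase and phosphatase that sets fructose-2,6-bisphosphate, was detected on 1 array, and the mitophagy receptor Bnip3 on 1. The collagen prolyl hydroxylase P4ha2 was detected on 0 arrays, and the endoplasmic reticulum oxidase Ero1l on 1. These 6 were not tested, and nothing can be said of their changes beyond signal near background in each group. Egln1 passed the filter with signal near the threshold throughout (group means between 6.17 and 6.48) and passed the test in none of the 17 comparisons. All levels that follow are normalized log2 intensities, to be compared between groups for 1 probe and not between genes. Differences are log2 differences with the standard error of the fit (limma, with Benjamini-Hochberg adjustment over 9453 genes), and a gene was called at an adjusted p under 0.05.

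**Figure D1:**
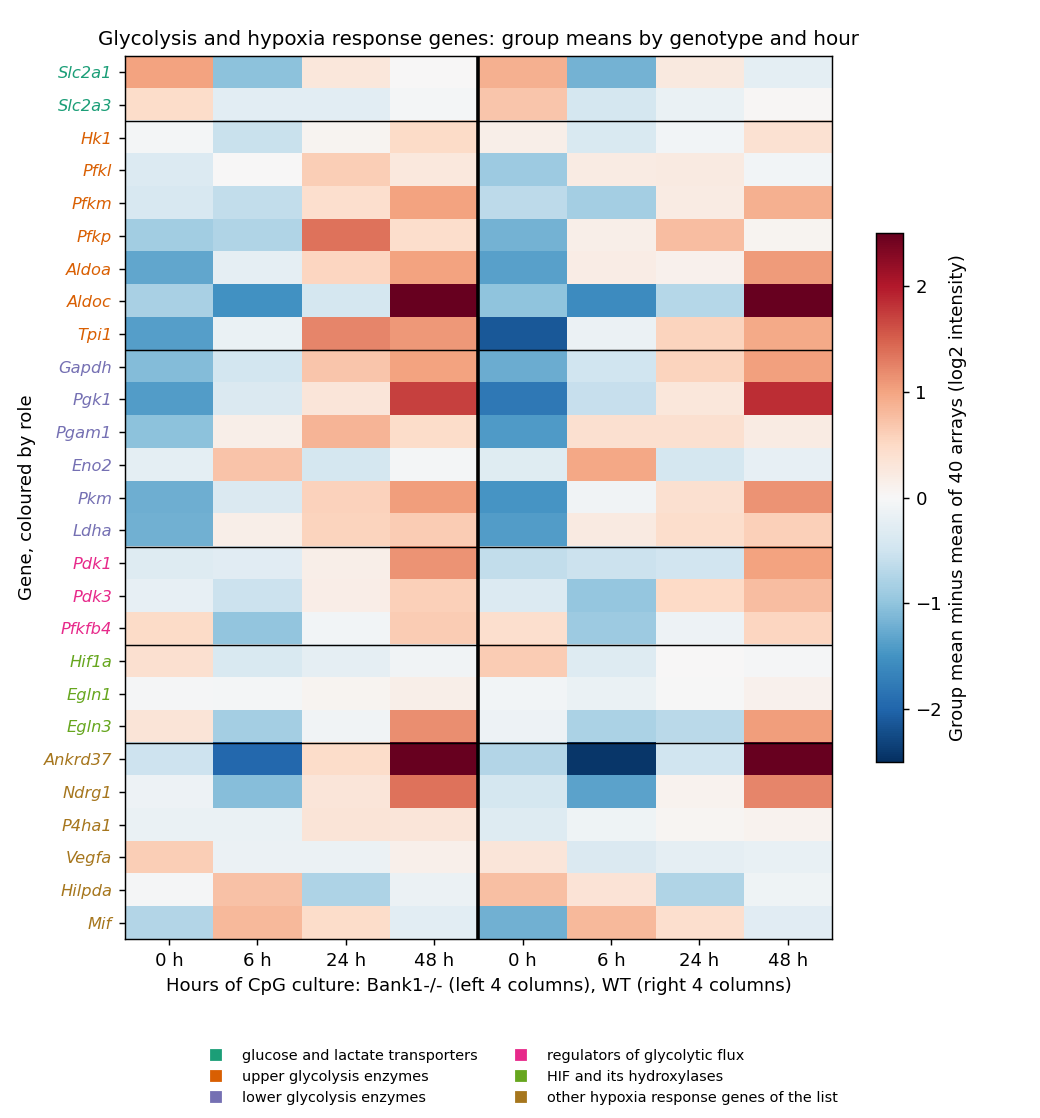
Mean normalized log2 intensity of the 27 tested genes in the 8 groups, each gene centred on its mean over the groups, with Bank1-/- columns at left and WT columns at right and hours of CpG low to high within each. Most enzymes turn from below to above their own mean after 0 h, while 13 of 27 genes in each genotype have their lowest mean at 6 h. The hour of the lowest mean was not counted over all tested genes. Colours saturate beyond 2.5 log2 units.

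At 6 h the list moved in both directions, as did the tested genes as a whole. By the probe used for each gene, all 6 tested enzymes of the lower, ATP-yielding stage of the pathway and lactate formation rose in both genotypes. These were Gapdh, Pgk1, Pgam1, Eno2, Pkm and Ldha. By the same measure both tested glucose transporters, the HIF alpha subunit gene Hif1a and the HIF targets Ankrd37, Ndrg1, Egln3 and Vegfa fell in both. Of the 27 genes 10 rose and 10 fell in Bank1-/- cells (31.2% and 29.5% of all tested genes), or 12 and 10 without the 0 h replicate 5. In WT cells 12 rose and 12 fell (33.0% and 33.6% of all tested genes). With arrays scaled to a common median in place of quantile normalization the split was 6 higher and 10 lower in Bank1-/- cells and 3 higher and 11 lower in WT cells; that scaling moved the median of all genes to -0.05 and -0.39. The call was the same in both genotypes for 19 of the 27 genes.

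Ldha, the A subunit of lactate dehydrogenase, read 12.86, 12.25, 12.16, 12.22 and 11.77 in Bank1-/- cells at 6 h, against 10.54, 10.60, 10.49, 9.87 and 12.98 at 0 h. In WT cells it read 12.24, 12.18, 12.21, 12.28 and 12.73 at 6 h and 10.85, 10.59, 10.84, 10.73 and 10.58 at 0 h. All WT arrays at 6 h lay above all WT arrays at 0 h, and the Bank1-/- groups overlapped through 1 array, the 0 h replicate 5 at 12.98. The difference was 1.36 ± 0.28 in Bank1-/- cells (adjusted p = 7.86e-05; 1.88 without that array) and 1.61 ± 0.28 in WT cells (adjusted p = 4.92e-06). Tpi1, triose phosphate isomerase, read 10.72, 11.66, 11.10, 11.75 and 11.08 in Bank1-/- cells at 6 h, against 9.26, 9.22, 9.12, 9.82 and 12.86 at 0 h. The WT arrays read 11.39, 11.41, 11.37, 11.36 and 10.81 at 6 h and 9.25, 9.26, 9.37, 9.39 and 9.24 at 0 h. Again 1 Bank1-/- array at 0 h lay above every 6 h array, and the WT groups did not overlap. Tpi1 rose by 1.21 ± 0.36 in Bank1-/- cells (1.91 without the 0 h replicate 5) and by 1.97 ± 0.36 in WT cells (adjusted p = 0.00377 and 9.56e-06).

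Pgk1, phosphoglycerate kinase, had 11.65, 11.06, 11.24, 10.97 and 11.45 at 6 h and 9.86, 9.83, 9.77, 9.38 and 12.39 at 0 h in Bank1-/- cells. In WT cells the 6 h arrays read 10.71, 11.05, 11.09, 10.98 and 11.55 and the 0 h arrays 9.94, 9.71, 9.87, 10.04 and 9.74. Apart from the 0 h replicate 5 of Bank1-/- cells, no 0 h array reached a 6 h array. The rise was 1.03 in Bank1-/- cells (1.56 without that replicate) and 1.22 in WT cells. Of the other enzymes, Pgam1 (phosphoglycerate mutase) rose by 1.17 and 1.80 in Bank1-/- and WT cells, Pkm (pyruvate kinase) by 0.85 and 1.40, and Aldoa (aldolase A) by 1.09 and 1.55. Gapdh, often taken as a constant gene, rose by 0.64 and 0.74. Without the 0 h replicate 5 the Bank1-/- rises were 1.62 for Pgam1, 1.39 for Pkm, 1.51 for Aldoa, 1.10 for Gapdh, 1.85 for Mif and 0.88 for Eno2. The neuronal enolase Eno2 was detected on 1 of 5 Bank1-/- arrays and 0 of 5 WT arrays at 0 h and on all 10 arrays at 6 h, where it rose by 0.96 in Bank1-/- cells and at least 2.18-fold in WT cells. The cytokine Mif, a listed hypoxia response gene, rose by 1.54 in Bank1-/- cells and 2.01 ± 0.18 in WT cells (adjusted p = 1.91e-12 in WT). The phosphofructokinase subunits, which catalyse the committed step, were not alike. Pfkl and Pfkp differed in Bank1-/- cells by 0.34 (adjusted p = 0.143) and 0.11 (adjusted p = 0.769), and by 0.66 (adjusted p = 6.15e-05) and 0.60 (adjusted p = 0.00922) without the 0 h replicate 5. In WT cells they rose by 1.11 and 1.33. Pfkm did not pass in either genotype (-0.22 and -0.19), nor in Bank1-/- cells without that array (-0.0027). A further probe of Pfkp was lower in Bank1-/- cells (-0.66, adjusted p = 0.027) and was not called in WT cells (0.28, adjusted p = 0.35). That of Pfkl rose in Bank1-/- cells (0.30, adjusted p = 0.0155) and was not called in WT cells (-0.17, adjusted p = 0.159). For Pfkm it was not called in Bank1-/- cells (0.02, adjusted p = 0.901) and rose in WT cells (0.52, adjusted p = 0.00101). P4ha1, a collagen prolyl hydroxylase subunit, differed by 0.01 in Bank1-/- cells (0.12 without the 0 h replicate 5) and by 0.22 in WT cells, where alone it passed.

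Slc2a1, the main glucose transporter of activated lymphocytes, fell most among the 27 genes. It read 8.52, 8.24, 8.72, 7.99 and 9.02 in Bank1-/- cells at 6 h, against 10.71, 10.61, 10.67, 10.20 and 10.40 at 0 h. The WT arrays read 8.13, 8.67, 8.01, 8.09 and 8.78 at 6 h and 10.32, 10.55, 10.27, 10.38 and 10.55 at 0 h. The groups did not overlap in either genotype, the 0 h replicate 5 included. Slc2a1 fell by 2.02 on the log2 scale in Bank1-/- cells and by 2.08 in WT cells (SE 0.17 each, adjusted p = 1.36e-12 and 3.86e-13). The second transporter, Slc2a3, fell by 0.73 and 1.14. Ankrd37, an ankyrin repeat protein known mainly as a HIF target, read 6.53, 6.74, 6.82, 6.94 and 6.98 at 6 h in Bank1-/- cells and 7.71, 7.88, 7.77, 7.91 and 9.95 at 0 h. In WT cells it read 6.17, 6.36, 6.23, 6.30 and 6.64 at 6 h, where 1 of 5 arrays was above the detection threshold, and 7.69, 7.97, 8.41, 8.06 and 8.07 at 0 h. Every 6 h array lay below every 0 h array of its genotype, and Ankrd37 fell by 1.44 in Bank1-/- cells and by 1.70 in WT cells. Pfkfb4, which like Pfkfb3 sets fructose-2,6-bisphosphate, fell by 1.47 and 1.34 in Bank1-/- and WT cells. Hif1a fell by 0.77 and 0.95, Ndrg1 by 0.95 and 0.89, and the growth factor Vegfa by 0.75 and 0.66. A further probe of Ndrg1 was not called in Bank1-/- cells (-0.17, adjusted p = 0.234) or in WT cells (-0.12, adjusted p = 0.425). A further probe of Vegfa was lower in Bank1-/- cells (-0.39, adjusted p = 0.00027) and was not called in WT cells (-0.01, adjusted p = 0.905). Egln3 was above the threshold on no array at 6 h, at least 1.69-fold lower than at 0 h in Bank1-/- cells and at least 1.05-fold lower in WT cells. Aldoc (aldolase C) and Hk1 (hexokinase 1) were not detected at 6 h in either genotype, and both were called lower in both; no fold is given because the 0 h signal was itself near the threshold, apart from Aldoc in the Bank1-/- 0 h replicate 5 (7.70, against 6.38 to 6.62 in the other 4 arrays of that group). Pdk3, a kinase that inhibits pyruvate dehydrogenase, differed by -0.32 in Bank1-/- cells (adjusted p = 0.181) and fell by 0.63 in WT cells. Leaving out the 0 h replicate 5, the Bank1-/- differences of the genes that fell were -2.05 for Slc2a1, -0.85 for Slc2a3, -1.02 for Ankrd37, -1.56 for Pfkfb4, -0.94 for Hif1a, -0.76 for Ndrg1 and -0.81 for Vegfa, all past the threshold. Egln3, Aldoc and Hk1 were called lower in that fit too, and no size is given because they were not detected at 6 h. Pdk3 then differed by -0.13, which did not pass. Markers of B cells moved over the same interval. Of the 5 tested B cell markers 4 fell in Bank1-/- cells (median -1.66, or -2.40 without the 0 h replicate 5) and 5 in WT cells (median -2.42), beside medians of 0.02 and -0.01 over all tested genes. Their summed intensity was 2312 to 4482 at 6 h and 4987 to 24048 at 0 h in Bank1-/- cells, where the 0 h replicate 5 was the lowest, and 3287 to 3949 at 6 h and 19919 to 22193 at 0 h in WT cells. Of the 4 tested erythroid markers 3 rose in Bank1-/- cells (median 1.41, or 1.25 without the 0 h replicate 5) and 1 in WT cells (median 0.23). The part of these markers in the changes of the list was not tested.

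**Figure D2:**
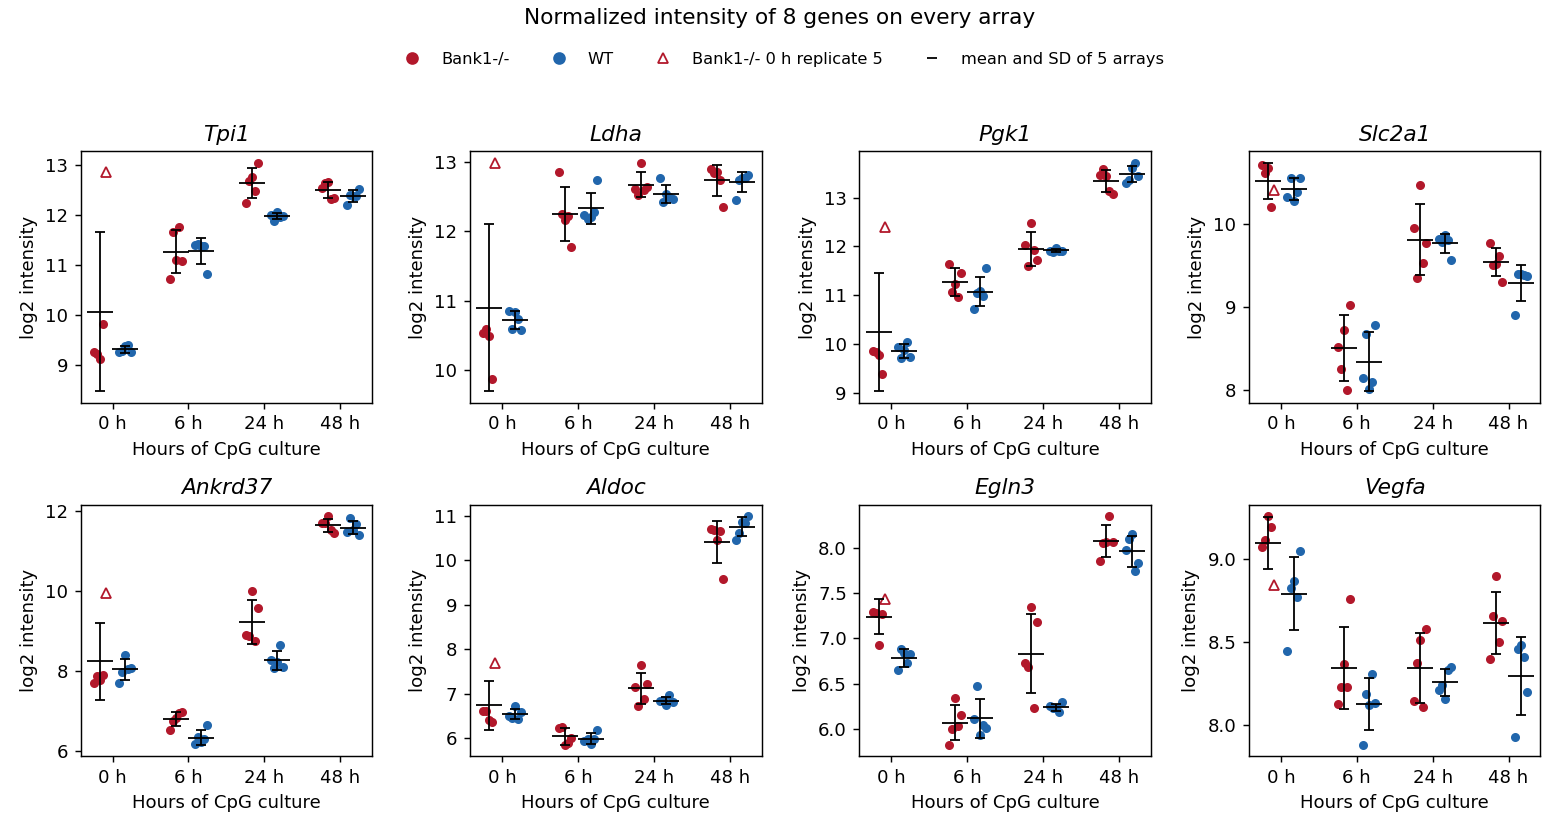
Normalized log2 intensity of 8 genes on each array against hours of CpG, with Bank1-/- left of WT at each hour; bars give the mean and SD of 5 arrays, and the open triangle is the Bank1-/- 0 h replicate 5. Tpi1, Ldha and Pgk1 climb, Slc2a1 dips at 6 h and stays under its 0 h level, and Ankrd37, Aldoc and Egln3 dip at 6 h and reach their highest level at 48 h.

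At 24 h 10 of the 13 tested enzymes stood above 0 h in each genotype, and the transporters and Hif1a below it. Of the 27, 15 rose and 7 fell in Bank1-/- cells (29.3% and 30.5% of all tested genes), or 17 and 8 without the 0 h replicate 5, and in WT cells 14 rose and 7 fell (34.6% and 30.1% of all tested genes). Median scaling gave 9 higher and 7 lower in Bank1-/- cells and 13 higher and 2 lower in WT cells. The call was shared by both genotypes for 20 of the 27. Tpi1 rose by 2.58 in Bank1-/- cells and 2.67 in WT cells, Pfkp by 2.22 and 1.95, Pgk1 by 1.70 and 2.06, Pgam1 by 1.88 and 1.80, and Pkm by 1.78 and 1.87. Slc2a1 was still lower than at 0 h, by 0.71 in Bank1-/- cells and 0.65 in WT cells. Hilpda, a lipid droplet protein induced by hypoxia, was lower by 0.75 and 1.50, and Hif1a by 0.61 and 0.62. Ankrd37 and Pdk1, another kinase that inhibits pyruvate dehydrogenase, rose in Bank1-/- cells by 0.98 and 0.47, while in WT cells they differed by 0.23 (adjusted p = 0.449) and 0.13 (adjusted p = 0.533). Without the 0 h replicate 5 the Bank1-/- differences were 3.28 for Tpi1, 2.71 for Pfkp, 2.24 for Pgk1, 2.33 for Pgam1, 2.32 for Pkm, 1.41 for Ankrd37, 0.69 for Pdk1, -0.74 for Slc2a1, -0.82 for Hilpda and -0.77 for Hif1a, and Aldoc (0.62), Pdk3 (0.57) and Eno2 (-0.28) passed as well. The Eno2 value rests on signal close to background, with no array above the threshold at 24 h.

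Between 6 and 24 h more genes were called in Bank1-/- cells than in WT cells. Of the 27, 19 were higher at 24 h than at 6 h in Bank1-/- cells and 2 lower (23.9% and 27.9% of all tested genes), or 20 and 3 without the 0 h replicate 5. In WT cells 10 were higher and 2 lower (31.3% and 26.0%), or 13 and 3 without it, with Tpi1, Pfkp and Pkm among the added calls. The 9 genes called in Bank1-/- cells alone were Aldoa, Egln3, P4ha1, Pdk1, Pfkl, Pfkp, Pgam1, Pkm and Tpi1. That excess depended on the scaling, since median scaling gave 9 higher and 2 lower in Bank1-/- cells and 21 higher and 1 lower in WT cells. Ankrd37 rose by 2.43 in Bank1-/- cells and 1.93 in WT cells, Slc2a1 by 1.31 and 1.42, and Ndrg1 by 1.37 and 1.41. Both genes that fell were the same in each genotype: Hilpda, by 1.51 and 1.08, and Eno2, with no array above the threshold at 24 h, at least 1.61-fold lower in Bank1-/- cells and 2.15-fold lower in WT cells.

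By 48 h most of the list stood at its highest level. The highest of the 4 group means was at 48 h for 15 of 27 genes in Bank1-/- cells and for 17 in WT cells. The hour of the highest mean was the same in both genotypes for 23 genes. These hours were not counted over all tested genes. Against 0 h, 19 rose and 4 fell in Bank1-/- cells (25.3% and 25.7% of all tested genes), a count that was the same without the 0 h replicate 5. In WT cells 18 rose and 5 fell (29.0% and 26.0% of all tested genes), and median scaling gave 16 higher and 1 lower in Bank1-/- cells and 19 higher and 0 lower in WT cells. The median difference of the 27 genes was 0.83 in Bank1-/- cells and 1.18 in WT cells, beside -0.02 and 0.01 over all tested genes. The largest rise was that of Aldoc, an aldolase isoform best known from brain. It read 10.70, 10.67, 10.45, 10.65 and 9.58 in Bank1-/- cells at 48 h, against 6.62, 6.62, 6.42, 6.38 and 7.70 at 0 h. In WT cells it read 10.47, 10.63, 10.87, 10.84 and 10.99 at 48 h and 6.50, 6.46, 6.73, 6.44 and 6.61 at 0 h. All 48 h arrays lay above all 0 h arrays, with the Bank1-/- 48 h replicate 5 the lowest of its group. Aldoc rose by 3.66 ± 0.19 in Bank1-/- cells and 4.21 ± 0.19 in WT cells (adjusted p = 2.5e-18 and 2.97e-20). The Pgk1 arrays at 48 h read 13.47, 13.59, 13.45, 13.13 and 13.08 in Bank1-/- cells and 13.31, 13.36, 13.61, 13.71 and 13.44 in WT cells, all above every 0 h array. Pgk1 rose by 3.10 and 3.63. Ankrd37 read 11.69, 11.70, 11.87, 11.53 and 11.45 at 48 h in Bank1-/- cells and 11.48, 11.83, 11.54, 11.67 and 11.41 in WT cells, above the 0 h replicate 5 as well. It rose by 3.40 and 3.54. Smaller rises followed in Tpi1 (2.45 in Bank1-/- cells and 3.07 in WT cells), Pkm (2.26 and 2.59), Aldoa (2.31 and 2.42), Gapdh (2.10 and 2.27), Ldha (1.84 and 1.99), Pgam1 (1.48 and 1.62), Ndrg1 (1.48 and 1.65) and Pdk1 (1.45 and 1.61). Slc2a1 stayed lower than at 0 h, by 0.98 in Bank1-/- cells and 1.13 in WT cells, as did Slc2a3, by 0.50 and 0.67, Hif1a, by 0.48 and 0.65, and Vegfa, by 0.48 and 0.49. Pfkm rose by 1.40 and 1.53, Pfkp by 1.31 and 1.24, Egln3 by 0.83 and 1.18, Pdk3 by 0.80 and 1.11, and Mif by 0.47 and 0.93. Hk1 passed in Bank1-/- cells alone (0.52, against 0.24 in WT cells, which passed too without the 0 h replicate 5), and Hilpda, lower by 0.87 in WT cells, differed by -0.12 in Bank1-/- cells. Without the 0 h replicate 5 the Bank1-/- differences were 3.90 for Aldoc, 3.64 for Pgk1, 3.83 for Ankrd37, 3.15 for Tpi1, 2.80 for Pkm, 2.74 for Aldoa, 2.57 for Gapdh, 2.36 for Ldha, 1.93 for Pgam1, 1.67 for Ndrg1 and 1.68 for Pdk1, and Slc2a1 fell by 1.01. Among the smaller differences they were 1.62 for Pfkm, 1.79 for Pfkp, 0.88 for Egln3, 0.99 for Pdk3, 0.59 for Hk1, -0.62 for Slc2a3, -0.64 for Hif1a, -0.54 for Vegfa and -0.19 for Hilpda, and that of Mif was 0.78 in place of 0.47. Pfkl rose by 0.60 in Bank1-/- cells (0.92 without that array) and 0.85 in WT cells, and P4ha1 by 0.47 (0.58 without it) and 0.43. The further probes of Pfkl, Pfkm, Pfkp and Pkm were not called at 48 h against 0 h in either genotype, nor were those of Hk1 and Pgk1 in Bank1-/- cells.

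Over the last interval, 24 to 48 h, Aldoc and Ankrd37 rose most. For Bank1-/- cells 11 of 27 were higher at 48 h than at 24 h and 2 lower (28.3% and 25.6% of all tested genes; 14 and 4 without the 0 h replicate 5), and in WT cells 13 were higher and 3 lower (26.6% and 27.1%; 15 and 3 without it). Median scaling gave 11 higher and 0 lower in each genotype. Aldoc read 7.15, 6.74, 7.64, 6.88 and 7.22 at 24 h in Bank1-/- cells and 6.84, 6.87, 6.76, 6.97 and 6.81 in WT cells, so that its rise by 48 h was 3.28 and 3.91. For Ankrd37 the 24 h arrays read 8.91, 8.88, 10.00, 8.76 and 9.58 in Bank1-/- cells and 8.28, 8.07, 8.22, 8.66 and 8.11 in WT cells. No 24 h array of either gene reached a 48 h array, and Ankrd37 rose by 2.42 and 3.32. Egln3 read 7.85, 8.05, 8.06, 8.34 and 8.06 at 48 h and 6.72, 6.68, 7.34, 6.23 and 7.17 at 24 h in Bank1-/- cells. In WT cells it read 7.97, 8.10, 8.15, 7.75 and 7.83 at 48 h and was not detected on any array at 24 h. Egln3 rose by 1.24 in Bank1-/- cells and at least 3.07-fold in WT cells. Pgk1 rose by 1.40 and 1.57, Pdk1 by 0.99 and 1.48, and Ndrg1 by 1.07 and 1.14. The enzymes that had risen at 6 h did not move together over this interval. Eno2 was called higher in both genotypes (0.40 in Bank1-/- cells and 0.23 in WT cells). No array was above the threshold for Eno2 at 24 h, so these values rest on signal close to background. Aldoa differed by 0.48 in Bank1-/- cells and rose by 0.94 in WT cells, and Pkm differed by 0.48 and rose by 0.72; in Bank1-/- cells both passed only when the 0 h replicate 5 was left out. Gapdh differed by 0.32 in Bank1-/- cells and 0.48 in WT cells, past the threshold in both once that array was left out. Of the rest, Tpi1 differed by -0.14 and 0.41, Ldha by 0.07 and 0.17, Pgam1 by -0.40 and -0.18, and Pfkl by -0.36 and -0.28, none of which passed in either genotype with all 40 arrays; without the 0 h replicate 5, Pgam1 and Pfkl passed in Bank1-/- cells and Tpi1 in WT cells. Mif fell by 0.72 in Bank1-/- cells and 0.70 in WT cells, and Pfkp by 0.91 and 0.71. In Bank1-/- cells 6 genes were lower at 6 h than at 0 h and higher at 48 h than at 24 h: Aldoc, Ankrd37, Egln3, Hk1, Ndrg1 and Pfkfb4. The same pattern was found in WT cells in these 6 and in Hilpda. The share of all tested genes with both calls was not counted. Over all tested genes 29.5% fell at 6 h and 28.3% rose from 24 to 48 h in Bank1-/- cells, and 33.6% and 26.6% in WT cells. Aldoc and Hk1 were near the threshold at both early hours, so that for them the first step rests on signal close to background. The further probes of Aldoc and Ndrg1 were not called at 6 h in either genotype, and that of Hk1 was called lower in both. The B cell markers also rose over this interval, 4 of the 5 tested in Bank1-/- cells (median 1.88) and 5 in WT cells (median 2.12). Their summed intensity was 19754 to 22581 at 48 h and 4535 to 5857 at 24 h in Bank1-/- cells, and 16109 to 27506 at 48 h and 4434 to 5041 at 24 h in WT cells. Their part in the rise of the list was not tested.

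**Figure D3:**
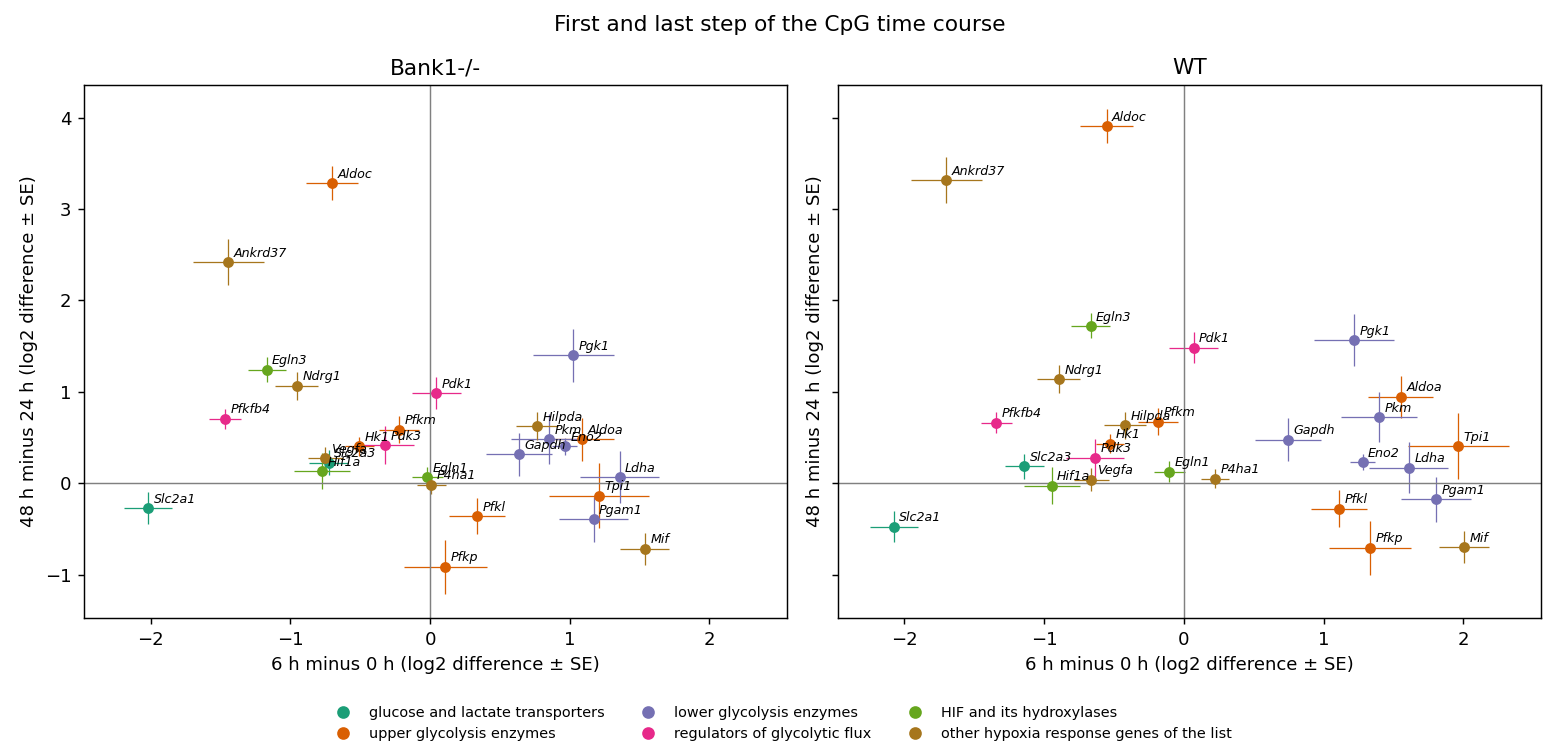
Fitted log2 difference at 6 h against 0 h (horizontal) and at 48 h against 24 h (vertical) for each of the 27 tested genes, Bank1-/- at left and WT at right, with bars of 1 SE. Ankrd37, Aldoc, Egln3, Ndrg1 and Pfkfb4 lie at upper left, Pgk1 at upper right, Mif at lower right, and Slc2a1 at the far left.

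Between the genotypes few of the 27 genes passed. At 0 h 0 were higher and 1 was lower in Bank1-/- cells (0.709% and 0.815% of all tested genes; 7 of 27 had an unadjusted p under 0.05). The same 0 and 1 were called without the 0 h replicate 5. At 6 h 1 was higher and 2 were lower (14.5% and 7.55%), or 2 and 3 without that array (19.7% and 10.9%), and leaving out 1 array of these 2 groups gave 0 to 4 calls in all. Median scaling gave 11 higher and 0 lower, with the median of all genes at 0.60 in place of 0.05. At 24 h limma called 0 higher and 0 lower (0.0423% and 0.0635%; 5 with an unadjusted p under 0.05), and without the 0 h replicate 5 it called 4 higher and 0 lower (0.212% and 0.148%). At 48 h it called 0 and 0 (0.0952% and 0.0741%; 2 with an unadjusted p under 0.05), with or without that array.

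Hilpda was the gene called at 0 h. It read 8.85, 8.88, 8.85, 8.19 and 8.33 in Bank1-/- cells and 9.20, 9.37, 9.81, 9.33 and 9.32 in WT cells at 0 h, and every Bank1-/- array lay below every WT array. It was lower in Bank1-/- cells by 0.79 (SE 0.15, adjusted p = 0.00245), or by 0.71 without the 0 h replicate 5 (adjusted p = 0.00786). At 6 h it read 9.56, 9.38, 9.39, 9.32 and 9.28 in Bank1-/- cells and 8.80, 8.79, 9.15, 8.65 and 9.53 in WT cells, where the WT replicate 5 reached into the Bank1-/- range. The 6 h difference was 0.40 ± 0.15 (adjusted p = 0.0478). From 0 h to 6 h Hilpda rose in Bank1-/- cells (0.77, or 0.69 without the 0 h replicate 5) and fell in WT cells (by 0.42), the only gene of the 27 called in opposite directions. A further probe of Hilpda, detected on all 40 arrays, went another way: its genotype difference was -0.26 at 0 h and -0.42 at 6 h, neither past the threshold (adjusted p = 0.453 and 0.0593), and in WT cells it rose by 0.94 at 6 h (adjusted p = 4.21e-06). The 2 probes thus disagreed in direction, and why was not tested. At 0 h 2 of the 4 tested monocyte and granulocyte markers were called lower in Bank1-/- cells, or 1 without the 0 h replicate 5. That was beside 0.815% of all tested genes. The markers of that list summed to 655 to 941 in Bank1-/- cells and 834 to 1117 in WT cells. Of the 5 tested B cell markers 0 were called (median -0.41, or -0.09 without that array). The part of these markers in the 0 h difference of Hilpda was not tested.

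Pfkp, the platelet-type phosphofructokinase, read 8.28, 8.56, 8.21, 8.57 and 7.93 in Bank1-/- cells and 9.45, 9.46, 9.20, 9.48 and 8.46 in WT cells at 6 h. The WT replicate 5 lay within the Bank1-/- range and the other 4 WT arrays above it. Pfkp was lower in Bank1-/- cells by 0.90 (SE 0.30, adjusted p = 0.0262), and its further probe by 0.80 (adjusted p = 0.0248). For 3 other genes a further probe was called at 6 h with the sign opposite to that of the main probe, which was not called: Pfkl (0.39, adjusted p = 0.00929; main probe -0.20), P4ha1 (0.35, adjusted p = 0.0186; main probe -0.05) and Pfkm (-0.38, adjusted p = 0.0424; main probe 0.22). For Pfkp, the difference by the main probe was -0.50 (adjusted p = 0.447) with the mean log2 raw signal of each array as a covariate. With median scaling the Pfkp difference was 0.08. Eno2 read 7.08, 7.21, 7.17, 7.10 and 7.38 in Bank1-/- cells and 7.69, 7.50, 7.27, 7.51 and 7.24 in WT cells, lower by 0.25 in Bank1-/- cells (SE 0.09, adjusted p = 0.0403), and differed by 0.29 under median scaling. The arrays of the 2 genotypes overlapped, with WT replicates 3 and 5 inside the Bank1-/- range. Without the 0 h replicate 5, Ankrd37 (0.46, adjusted p = 0.026) and Aldoa (-0.41, adjusted p = 0.0105) were called at 6 h as well. Other measures differed between these groups at 6 h. The mean raw signal was 290.3 to 511.2 in Bank1-/- cells and 145.7 to 455.1 in WT cells. The summed intensity of the erythroid markers was 2732 to 6446 in Bank1-/- cells and 1202 to 1885 in WT cells, with 5 of the 6 that have a probe detected in Bank1-/- cells and 2 in WT cells; Alas2, Slc4a1 and Sptb were detected in the Bank1-/- group alone. The monocyte and granulocyte markers summed to 771 to 909 in Bank1-/- cells (4 of 9 detected) and 672 to 824 in WT cells (2 of 9). Lyz2 and Adgre1 were detected in both groups, S100a8 and Elane in the Bank1-/- group alone, and the rest in neither. Called higher in Bank1-/- cells were 3 of 4 tested erythroid, 2 of 4 monocyte and granulocyte and 1 of 3 platelet markers. Of the 5 tested B cell markers 1 was called lower. Over all tested genes 14.5% were higher and 7.55% lower. The part of these measures in the differences was not tested.

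At 24 h the arrays of 6 genes separated fully, with all 5 Bank1-/- arrays above all 5 WT arrays: Pfkl, Aldoa, Tpi1, Pdk1, Ankrd37 and P4ha1. Over all tested genes 2.15% separated in that direction. In none of the 6 did the adjusted p from all 40 arrays fall under 0.05. The summed intensity of the erythroid markers separated in the same way, at 720 to 995 in Bank1-/- cells (3 of 6 detected) and 628 to 649 in WT cells (1 of 6), although none of the 4 tested was called. The mean raw signal was 227.7 to 407.0 in Bank1-/- cells and 345.6 to 453.4 in WT cells. Their part in the separation was not tested. Ankrd37 at 24 h, with the arrays given above, was 0.96 higher in Bank1-/- cells (adjusted p = 0.241), and without the 0 h replicate 5, which enters through the shared spread alone, the adjusted p was 0.00056. Tpi1 read 12.23, 12.68, 12.76, 12.47 and 13.04 in Bank1-/- cells and 11.99, 11.88, 12.05, 11.96 and 11.97 in WT cells at 24 h, a difference of 0.67 (adjusted p = 0.467, and 0.03 without that array). The lowest Bank1-/- array was 12.23 and the highest WT array 12.05. Pdk1 read 7.88, 8.03, 8.55, 7.74 and 8.37 in Bank1-/- cells and 7.35, 7.52, 7.60, 7.71 and 7.28 in WT cells, a difference of 0.62 (adjusted p = 0.307, and 0.0291 without it). The gap between the groups was narrow, with the lowest Bank1-/- array at 7.74 and the highest WT array at 7.71. Egln3, detected on 3 of 5 Bank1-/- arrays and 0 of 5 WT arrays, was at least 1.4-fold higher in Bank1-/- cells (adjusted p = 0.082, and 0.0302 without it). At 48 h the mean of Ankrd37 was 11.65 ± 0.16 in Bank1-/- cells and 11.59 ± 0.17 in WT cells (SD, n = 5), and that of Aldoc 10.41 ± 0.48 and 10.76 ± 0.21. Neither passed the test at that hour.

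**Figure D4:**
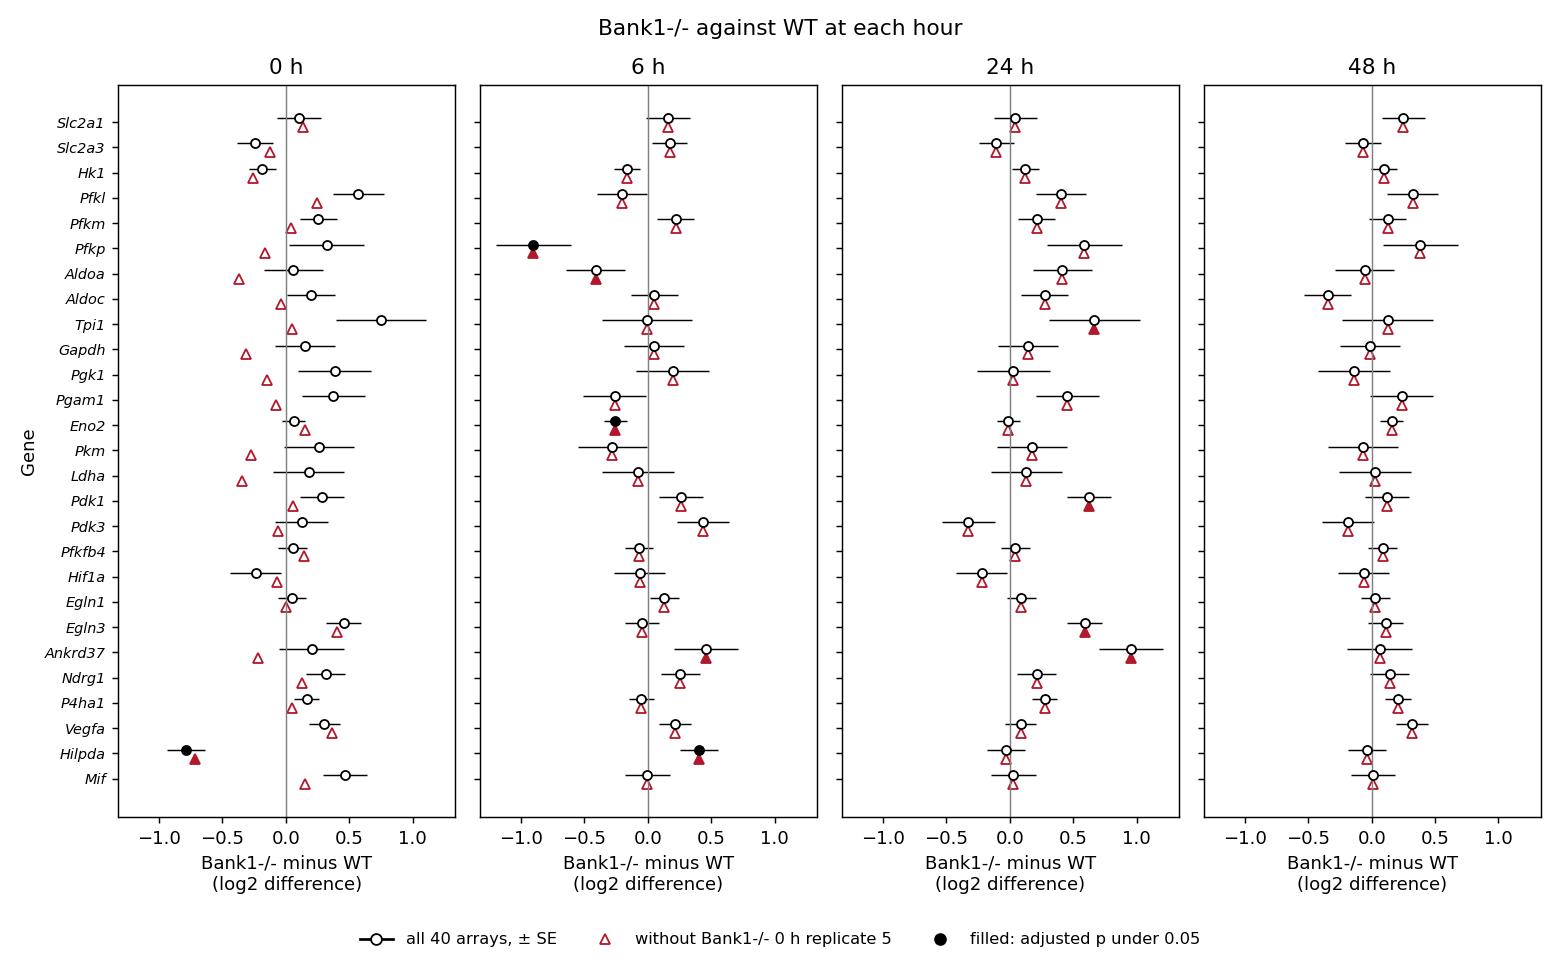
Difference between Bank1-/- and WT (log2, bars of 1 SE) for the 27 tested genes at 0, 6, 24 and 48 h; circles use all 40 arrays, triangles leave out the Bank1-/- 0 h replicate 5, and filled symbols mark an adjusted p under 0.05. With all arrays only Hilpda at 0 h and Hilpda, Pfkp and Eno2 at 6 h are filled, and without the replicate Ankrd37 and Aldoa at 6 h and Ankrd37, Tpi1, Pdk1 and Egln3 at 24 h are filled too.

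The test of the difference itself, Bank1-/- response minus WT response, called 1 gene higher and 0 lower at 6 h (5.59% and 3.81% of all tested genes), 0 and 0 at 24 h (0.264% and 0.201%; 3 of 27 with an unadjusted p under 0.05), and 0 and 0 at 48 h (0.0635% and 0.0317%; 2 with an unadjusted p under 0.05). The gene at 6 h was Hilpda, with a difference of 1.19 ± 0.21 (adjusted p = 0.000549; 1.12 without the 0 h replicate 5), which its further probe did not show (-0.16, adjusted p = 0.685). Without the 0 h replicate 5, Ankrd37 (0.68, adjusted p = 0.0469) and Eno2 (-0.40, adjusted p = 0.0237) passed at 6 h, and Ankrd37 (1.18, adjusted p = 0.00396) and Aldoa (0.78, adjusted p = 0.0175) at 24 h. The calls that one genotype passed and the other missed, such as Pfkl and P4ha1 at 6 h, were not shown to differ between genotypes by this test on the main probes. The further probe of Pfkl passed it with the opposite sign (0.47, adjusted p = 0.0443, where the main probe gave -0.77): it rose at 6 h in Bank1-/- cells (0.30, adjusted p = 0.0155) and differed by -0.17 in WT cells (adjusted p = 0.159).

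For 16 of the 27 genes a further probe was detected. Of the 13 such genes called in WT cells at 6 h, the further probe of 5 was called in the same direction and that of 2, Hilpda and P4ha1, in the opposite one. Of the 14 called in WT cells at 48 h against 0 h, 10 had a further probe called in the same direction and 0 in the opposite one, and in Bank1-/- cells the figures were 8 and 0 of 14. From 6 to 24 h in WT cells, 2 of 6 had a further probe called in the same direction and 2, Aldoc and Pfkm, in the opposite one.

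Around the listed genes, 5 further lists covered the rest of the pathway. Their counts stand beside these shares of all tested genes: at 6 h 31.2% rose and 29.5% fell in Bank1-/- cells and 33.0% and 33.6% in WT cells, and from 24 to 48 h 28.3% and 25.6% in Bank1-/- cells and 26.6% and 27.1% in WT cells. Of 22 further hypoxia response genes 18 were tested. At 6 h 4 rose and 6 fell in Bank1-/- cells (6 and 8 without the 0 h replicate 5) and 5 rose and 9 fell in WT cells, and from 24 to 48 h 8 and 11 rose and 3 fell in each. Bnip3l, a mitophagy receptor related to Bnip3, fell at 6 h by 2.90 in Bank1-/- cells and 2.98 in WT cells, and rose from 24 to 48 h by 1.48 and 2.01. Fam162a rose at 6 h by 2.29 and 2.22. Ddit4, an inhibitor of mTORC1, was lower in Bank1-/- cells than in WT cells at 6 h, by 0.63 (adjusted p = 0.00294), and higher at 24 h, by 0.85 ± 0.15 (adjusted p = 0.0032), with no overlap of arrays at either hour. Its 24 h response differed between the genotypes by 0.89 (adjusted p = 0.0407; 0.69 without the 0 h replicate 5). With array brightness as a covariate the 24 h genotype difference of Ddit4 passed (0.76, adjusted p = 0.013), and neither the 6 h difference (-0.44, adjusted p = 0.132) nor the difference of the 24 h responses (0.73, adjusted p = 0.119) did. Of the 6 tested HIF regulators of 7 listed, 2 rose and 2 fell at 6 h in each genotype: the HIF subunit Arnt fell by 0.65 in Bank1-/- cells and 1.15 in WT cells, and Vhl, which recognises hydroxylated HIF, by 0.79 and 0.94. Cited2, a competitor of HIF for its coactivators, rose by 0.89 and 0.60. From 24 to 48 h 4 of the 6 rose in each genotype and none fell. Of 22 genes of pyruvate entry and the tricarboxylic acid cycle 16 were tested, and at 6 h 11 rose in Bank1-/- cells and 9 in WT cells, none lower; from 24 to 48 h 2 and 3 rose and 4 and 6 fell. Idh3a, a subunit of isocitrate dehydrogenase, rose at 6 h by 1.41 and 1.67 and fell from 24 to 48 h by 1.22 and 1.33. In the pentose phosphate pathway (6 of 8 tested) 3 and 4 rose at 6 h and 2 and 1 fell. Tkt, transketolase, rose by 1.28 and 1.97 at 6 h, and Rpe, ribulose phosphate epimerase, by 2.68 and 3.19 at 48 h against 0 h. Among other isoforms and branches of glycolysis (10 of 23 tested) 2 and 2 rose at 6 h and 4 and 6 fell. Gpd2, the mitochondrial glycerol phosphate dehydrogenase, was lower at 48 h than at 0 h by 2.31 in Bank1-/- cells and 2.28 in WT cells. Pygl, which breaks down glycogen, was higher at 48 h than at 0 h, at least 3.54-fold in Bank1-/- cells, where no 0 h array was above the threshold, and by 2.12 in WT cells. Between genotypes at 6 h the calls of these 5 lists were Gbe1, Dld, Sucla2, Higd1a, Mxi1, Adm and Slc6a6 higher and Ddit4 and Stc2 lower in Bank1-/- cells, and at 24 h Ddit4 alone. At 6 h 14.5% of all tested genes were higher and 7.55% lower, and none of these 9 calls at 6 h remained with array brightness as a covariate. With the 0 h replicate 5 left out, 5 genes of the tricarboxylic acid cycle list and 6 of the hypoxia list were higher in Bank1-/- cells at 6 h and 0 and 2 lower. Of the other lists 1 HIF regulator and 1 gene of the isoforms and branches were higher, and 1 gene of the pentose phosphate pathway was lower. Over all tested genes 19.7% were higher and 10.9% lower in that fit. The Bank1-/- differences from 0 h at 6 h were then -2.97 for Bnip3l, 2.69 for Fam162a, -0.79 for Arnt, -0.83 for Vhl, 0.83 for Cited2, 1.75 for Idh3a and 1.60 for Tkt, and those at 48 h against 0 h 2.99 for Rpe and -2.48 for Gpd2.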

How the data were processed

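Expression was measured on 40 Illumina arrays, and groups and replicate numbers come from the sample titles. The authors deposited a table of linear probe intensity, not normalized per the file headers, and a processed table of log2 intensity whose making is not given in the sources used here. The columns of the deposited log2 table share a median of 6.87, rank probes as the intensity does (Spearman correlation of 1) and differ by at most 0.128 from quantile normalized log2 intensity. A further 8 columns of the intensity table match no sample and were not used.

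The intensity was processed in limma 3.58.1 (R 4.3.3, with data.table in version 1.17.8): normexp with an offset of 50, quantile normalization between arrays, then log2. Of 45281 probes 34885 had 1 platform symbol, 18 several and 10378 none. The probe of a gene was the one with the highest mean in the authors' log2 values, and it was tested if 5 or more of the 40 arrays detected it. Where no array of a group was detected, the fold is the least that the data allow, with each undetected array set to its threshold or to its measured value if that is higher. Each gene was fitted by lmFit and eBayes with 1 coefficient per group (32 residual degrees of freedom, two-sided tests, 17 comparisons, adjustment over 9453 genes), with no replicate block. Replicates with the same number did not deviate together (correlations of -0.49 to 0.45 over 28 pairs of groups), so the numbers were not taken as pairs. The fit was tested on simulated data. Precision is limited by 5 arrays a group; 0 pairs of arrays were identical, and the largest signal was 37276. Alternatives were the authors' table, no background correction, median scaling, no filter, a replicate block, array brightness as a covariate, array weights, the next brightest probe, a fit of the compared groups alone and leaving out each array.

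The members and the gene lists were chosen with earlier results of these data known. The list's called members are named, up to the 10 largest differences in each direction, and of the further lists up to 4 with the smallest p. Promoters came from RefSeq (GRCm38.p6). Plots used matplotlib 3.10.9 and numpy 2.4.6 under Python 3.11.15.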

Additional observations from a re-analysis of the deposited data

Results flagged for a closer look

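In each of the 216 groups of 5 arrays (27 genes in 8 groups), the highest and lowest array were set against the others by Dixon's ratio, with a critical value of 0.71. By chance about 1 in 20 groups would exceed it, and 30 did. The 27 genes were read on the same arrays, so the 30 are not independent of each other. Of these, 15 were the library labelled Bank1-/- 0 h replicate 5. It was the highest of its group in Tpi1 (12.86), Ldha (12.98), Gapdh (12.87), Pkm (12.73), Pgk1 (12.39), Aldoa (11.50), Pfkl (10.89), Pfkp (10.15), Ankrd37 (9.95), Pgam1 (9.52), Pdk1 (8.53), Ndrg1 (8.05), Pfkm (7.77) and Aldoc (7.70), and the lowest in Slc2a3 (8.03).

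In WT cells at 48 h, replicate 1 was the lowest in Slc2a1 (8.90), Pfkl (9.31), Gapdh (12.93) and Ldha (12.45). In WT cells at 6 h, replicate 5 was the lowest in Pfkp (8.46) and Tpi1 (10.81) and the highest in Ldha (12.73). In Bank1-/- cells at 24 h, replicate 3 was the highest in Ldha (12.98) and Ndrg1 (8.10) and lay apart in Pkm (12.63). The other arrays that lay apart were WT 24 h replicate 3 in Aldoa (11.11) and Pgk1 (11.97), WT 24 h replicate 1 in Pgam1 (8.87), Bank1-/- 48 h replicate 5 in Aldoc (9.58) and WT 0 h replicate 3 in Hilpda (9.81).

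The 6 h response of Hilpda differed between the genotypes by 1.19 (limma adjusted p = 0.000549), Bank1-/- minus WT, by the probe with the highest mean, and by -0.16 (adjusted p = 0.685) by its further probe.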

How the results depend on the processing

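Counts of called genes (of 27) are those of limma at an adjusted p under 0.05. Beyond the main fit, the share of all tested genes called was counted only with array brightness and without the Bank1-/- 0 h replicate 5. For the other alternatives no such share stands beside the count. Between genotypes at 0 h (1 call) there were 0 with median scaling, the next brightest probe or the compared groups alone, 2 with array brightness as a covariate and 3 with array weights. At 6 h (3 calls) there were 11 with median scaling, 0 with brightness, 7 with weights and 5 with the next brightest probe. At 24 h (0 calls) weights gave 10, all higher in Bank1-/- cells. Median scaling gave 14 calls at 6 h against 0 h in WT cells (24 otherwise), 22 at 24 h against 6 h in WT cells (12) and 11 in Bank1-/- cells (21, or 13 with the next brightest probe), and weights gave 21 at 48 h against 24 h in Bank1-/- cells (13). For the difference of responses, 6 h (1 call) gave 0 with median scaling and 5 with weights, 24 h (0 calls) gave 1 with brightness and 7 with weights, and 48 h (0 calls) gave 1 with brightness and 1 with weights. Brightness with the Bank1-/- 0 h replicate 5 left out, an alternative chosen after seeing the data, gave 2 at 24 h and 1 at 48 h. The replicate block kept the direction and call of 156 of 157 gene values. The sources used here give no pairing of the replicate numbers.

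Leaving out 1 array gave 1 to 3 calls between genotypes at 0 h (3 without Bank1-/- 0 h replicate 3) and 0 to 4 at 6 h. Those at 6 h were 0 without Bank1-/- 6 h replicate 3 or WT 6 h replicate 1, 2 or 4, 1 without Bank1-/- 6 h replicate 1 or 5, and 4 without WT 6 h replicate 5. At 24 h there were 0 to 1 (1 without Bank1-/- 24 h replicate 4) and at 48 h 0. The difference of 6 h responses had 1 to 4 calls: 3 without Bank1-/- 0 h replicate 2, 3 or 5, 2 without Bank1-/- 0 h replicate 4, Bank1-/- 6 h replicate 4 or WT 0 h replicate 1, and 4 without WT 6 h replicate 5. That of 24 h had 0 to 2 (2 without Bank1-/- 0 h replicate 5) and that of 48 h 0. Against 0 h, the 6, 24 and 48 h counts were 19 to 22, 20 to 25 and 20 to 23 in Bank1-/- cells and 22 to 23, 21 to 21 and 23 to 24 in WT cells.

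Direction turned for 2 values under median scaling, Pfkp (0.076) and Eno2 (0.29) between genotypes at 6 h, and for 16 of 86 with the next brightest probe, most of them dim; the cause was not tested. In WT cells these were Pkm (-0.041), Pfkl (-0.17) and Aldoc (0.13) at 6 h against 0 h, Pfkm (-0.47) and Aldoc (-0.18) at 24 h against 6 h, and Pgk1 (-0.051) and Pkm (-0.048) at 48 h against 24 h. In Bank1-/- cells they were Pgk1 (-0.13) and Pkm (-0.040) at 6 h and Hilpda (0.12) at 24 h against 0 h, Aldoc (-0.081) at 24 h against 6 h, and Pgk1 (-0.15), Hilpda (-0.27) and Pfkm (-0.15) at 48 h against 24 h. Hilpda gave -0.42 between genotypes at 6 h and -0.16 for the difference of 6 h responses. Of 157 gene values, median scaling kept 116 calls (39 lost, 2 turned) and, of 86 with a further probe, the next brightest probe 51 (19 lost, 16 turned); the authors' table kept 156, no background correction 156, no filter 153, brightness 149, weights 157 and the compared groups alone 146, and no other alternative turned a direction.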
